A study of Mus musculus with 8 samples.

Results

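The 46 genes described here encode factors that make ribosomes in the nucleolus. They were chosen by name: every row of the deposited gene table whose Entrez identifier belonged to 1 of 46 listed symbols was taken. The rule used no measured value, but the symbols were listed with earlier results of these data known. All 46 were found among the 24573 genes of the table, and all 46 were among the 12420 genes that passed a filter on low counts and were tested. RNA was sequenced from C2C12 cells, a line of mouse myoblasts that divide as muscle precursors and can fuse into myotubes, collected while they were dividing.

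Every group had been infected with lentivirus carrying a short hairpin RNA (shRNA) and kept under puromycin. The Brd9 group carried an shRNA against Brd9, a subunit of the non-canonical form (ncBAF) of the SWI/SNF chromatin remodeller. The Baf250A group carried one against Baf250A, which is encoded by Arid1a and marks the canonical form (cBAF). The Baf180 group carried one against Baf180, which is encoded by Pbrm1 and marks the polybromo form (PBAF). The scramble group carried a control sequence. The 8 libraries formed 4 groups of 2. No label states that a group's pair was grown in separate cultures. The p-values rest on how far the 2 libraries of a group differ, estimated over all 4 groups together. That spread could be technical variation alone. The titles name 1 hairpin per target, so loss of the target and an effect of the hairpin on other RNAs cannot be told apart. The labels do not state whether transduced cells were pooled or cloned.

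Ribosome production starts in the nucleolus, where RNA polymerase I copies the ribosomal RNA genes into a long precursor. Small nucleolar ribonucleoproteins (snoRNPs) guide chemical changes on that precursor, the small-subunit processome folds and cuts it as it is made, and separate sets of factors finish the small and the large subunit and escort them to the cytoplasm. The programme is costly, is turned up in growing cells, and is a well-known target of the transcription factor Myc; its parts were mostly worked out in yeast and in human cells, which is where the roles named below come from.

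Levels are given as CPM, a library's counts scaled to a common library size with TMM (trimmed mean of M-values) factors. Fold changes are log2 values with their standard error (SE) from edgeR's quasi-likelihood test over all 12420 genes, and a gene is called where its Benjamini-Hochberg adjusted p was below 0.05. Libraries held from 17763076 to 20400863 counts. Scramble replicate 2, with the fewest counts, had 16402 genes with a count above 0, against 14195 to 14768 in the other libraries. The reason was not tested. The targeted genes checked the labels. Brd9 had 7.61 and 7.07 CPM in the Brd9 libraries, against 40.3 and 36.8 CPM in the scramble libraries, Arid1a had 67.1 and 64.2 CPM in the Baf250A libraries, against 159 and 157 CPM in the scramble libraries, and Pbrm1 had 3.77 and 4.69 CPM in the Baf180 libraries, against 49.2 and 56.00 CPM in the scramble libraries, and each was called lower in its own group. Of the markers, 8 of 8 myoblast genes passed the filter, with summed levels between 4634 and 8745 CPM, of which Vim gave most in each library (3767 to 7044 CPM). The myoblast genes did not move together. Cdh15 had 34.2 and 26.2 CPM in the Baf250A libraries, against 168 and 165 CPM in the scramble libraries, Itga7 had 75.2 and 59.7 CPM in the Baf250A libraries, against 280.4 and 283 CPM in the scramble libraries, and Myod1 had 366 and 292 CPM in the Baf180 libraries, against 154 and 157 CPM in the scramble libraries. Pax7 had 11.6 and 10.2 CPM in the Brd9 libraries, 0.91 and 0.21 CPM in the Baf250A libraries and 15.4 and 13.9 CPM in the Baf180 libraries, against 3.20 and 2.77 CPM in the scramble libraries. Of the 6 myotube genes 4 passed, with summed levels of 12.9 and 19.5 CPM in the Brd9, 41.3 and 36.2 CPM in the Baf250A and 116 and 96.1 CPM in the Baf180 libraries, against 17.2 and 17.9 CPM in the scramble libraries. Acta1 gave most of each sum, and Ckm and Tnnt3 did not pass. Their part in the results was not tested. None of 6 markers of blood, vessel, epithelial, fat, glial and T cells passed, and their summed level was at most 0.491 CPM, with Epcam and Cd3e at 0 in all 8 libraries. In bulk RNA, fewer cells of a type and less RNA per cell cannot be told apart. In all 3 knockdowns the fold change of all genes followed the GC content of the transcript, so the counts of genes called, by step and by list, are also given from a second fit in which loess curves on GC content and then on gene length were removed from each library (the offset fit). The offset fit also removes any change that itself follows GC content or length. The 3 comparisons with scramble share the same 2 scramble libraries.

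Across the 4 groups, 40 of the 46 genes differed by a test for any difference, or 87.0%, where the share among all tested genes was 68.9%, and the offset fit called 42, or 91.3%, against 69.0%. The Brd9 and Baf180 knockdowns had lower levels of many members. In the Baf250A knockdown the share of members called higher was nearer to that of all genes, and in the offset fit both shares were 17.4%. Called lower there were 0 members in either fit, against 14.0% of all genes, and 18.1% with offsets. With offsets 1 member was lower at an unadjusted p below 0.05. In the Brd9 libraries 17 members (37.0%) fell and 0 rose, with a median log2 fold change of −0.54 over the 46, against 0.04 over all tested genes. Among all tested genes 3.57% were called lower and 6.45% higher in this comparison. In the Baf180 libraries 23 members (50%) fell and 0 rose, with a median of −0.47, against −0.02 over all genes. Of all genes 17.0% were called lower and 17.2% higher. In the Baf250A libraries 10 members (21.7%) rose and 0 fell, with a median of 0.03, against −0.02 over all genes. Among all genes 15.5% were called higher and 14.0% lower. Without offsets, an unadjusted p below 0.05 and DESeq2 also gave 0 for each of these 3 counts of 0. The 6 members not called in the test for any difference were Nop10, Polr1a, Polr1c, Noc4l, Bysl and Rrs1.

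By library, the Brd9 and Baf180 groups stood below the Baf250A and scramble groups and overlapped each other. The median member stood at −0.57 and −0.41 relative to the scramble mean in the Brd9 libraries, at 0.07 and 0.03 in the Baf250A libraries and at −0.43 and −0.52 in the Baf180 libraries, on the log2 scale. The summed level of the 46 members was 4898 and 5337 CPM in the Brd9, 8025 and 8524 CPM in the Baf250A and 5611 and 4793 CPM in the Baf180 libraries, against 7524 and 7167 CPM in the scramble libraries. Abundant members weigh most in these sums. Npm1 and Ncl had means of 1091 and 936 CPM in the Baf250A libraries, against 585 and 410 CPM in the scramble libraries. Of the 46, 24 had a positive and 22 a negative log2 fold change in that comparison. Both Brd9 libraries lay below both scramble libraries for 37 members, where the share of all tested genes was 31.2%. Both Baf180 libraries did so for 36 members, where the share was 37.1%. Both Baf250A libraries lay above both scramble libraries for 18 members and below them for 14, where the shares of all genes were 36.3% and 39.5%.

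The Brd9 calls depended on single libraries. When the libraries named next were left out, fewer of all tested genes were also called in the same direction against scramble. Without Brd9 replicate 1, scramble replicate 1 or scramble replicate 2, edgeR called 0 members lower, although 20, 23 and 24 had an unadjusted p below 0.05 in those fits. The 10 calls in the Baf250A libraries became 4 without Baf250A replicate 2, 3 without scramble replicate 1 and 1 without scramble replicate 2. The 23 calls in the Baf180 libraries became 14 without scramble replicate 1 and 15 without scramble replicate 2, and 13 of the 23 were kept in each of the 8 fits that left out a library. The 40 members with any difference became 25 without Brd9 replicate 1 and 26 without scramble replicate 1. In the offset fit, 38 members were called lower in the Brd9 libraries, where the share of all genes was 13.8%, 8 were called higher in the Baf250A libraries, where it was 17.4%, and 30 were called lower in the Baf180 libraries, where it was 18.8%.

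**Figure D1:**
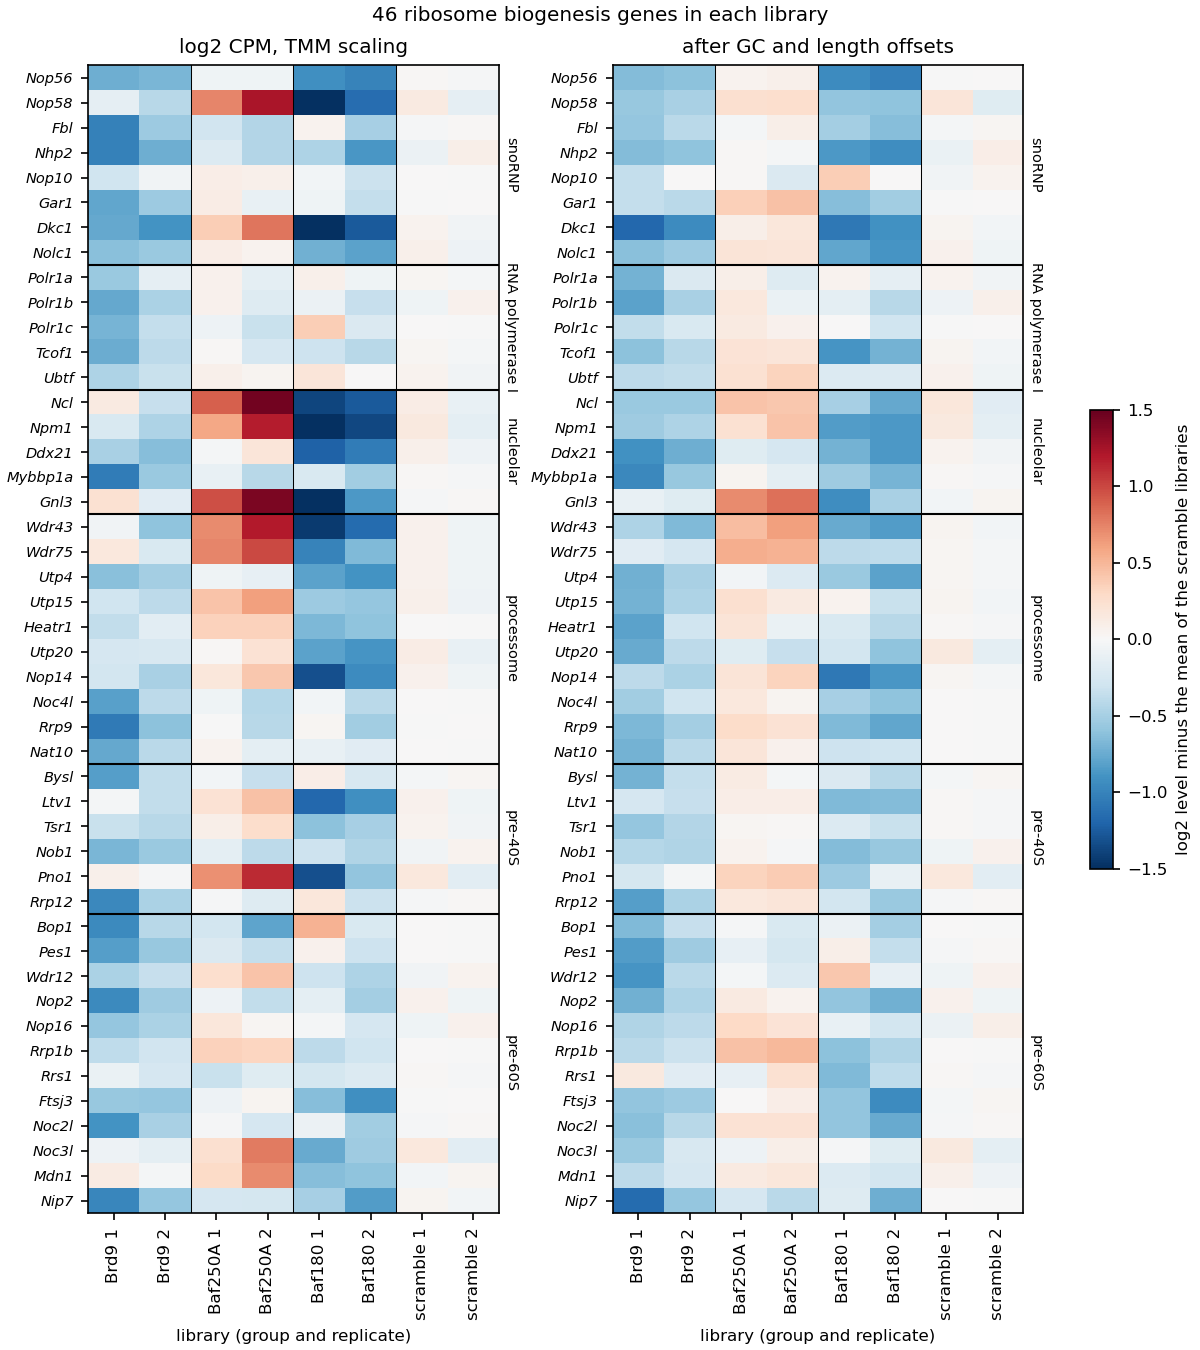
Level of each of the 46 members in each of the 8 libraries, as the log2 level minus the mean of the scramble libraries, with members in rows grouped by step (the last 2 blocks are the small-subunit and the large-subunit factors) and libraries in columns. The left panel uses TMM-scaled levels and the right panel the levels after the GC and length offsets; most Brd9 and Baf180 fields are blue (lower than scramble) in both, and the darkest red fields of the Baf250A libraries on the left are paler on the right.

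Several members also carry part of the machinery in their introns. Per the GENCODE M21 annotation (GRCm38, the assembly that mm10 names), 7 members (Nop56, Nop58, Dkc1, Ncl, Gnl3, Wdr43 and Tsr1) hold 21 small nucleolar RNA (snoRNA) genes on their own strand, 20 of them in introns, so transcribing these genes also makes the RNAs that snoRNPs carry. Examples from 5 of these hosts, each of which fell in the Baf180 libraries, are shown to give both kinds of snoRNA. Capitals mark the letters of box C (TGATGA) and box D (CTGA) within 15 bases of the ends, or the ACA near the end of the H/ACA snoRNA Snora75. Both boxes were found with these letters in 8 of the 21.
Snord110 (Nop56, chr2:130275506-130275573, plus strand): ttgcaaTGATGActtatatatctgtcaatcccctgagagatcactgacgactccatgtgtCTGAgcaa
Snord11 (Nop58, chr1:59704790-59704873, plus strand): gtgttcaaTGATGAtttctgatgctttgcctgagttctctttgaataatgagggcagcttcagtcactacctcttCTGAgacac
Snord82 (Ncl, chr1:86356261-86356330, minus strand): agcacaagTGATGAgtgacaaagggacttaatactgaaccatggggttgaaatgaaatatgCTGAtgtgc
Snora75 (Ncl, chr1:86351169-86351301, minus strand): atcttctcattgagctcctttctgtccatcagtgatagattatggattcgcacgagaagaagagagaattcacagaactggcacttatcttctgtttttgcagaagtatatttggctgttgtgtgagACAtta
Snord69 (Gnl3, chr14:31014287-31014366, minus strand): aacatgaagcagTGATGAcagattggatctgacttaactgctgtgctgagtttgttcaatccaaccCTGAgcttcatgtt
Snord92 (Wdr43, chr17:71631281-71631365, plus strand): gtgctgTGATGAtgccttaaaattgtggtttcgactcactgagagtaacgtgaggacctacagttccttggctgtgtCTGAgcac

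All 7 snoRNA hosts fell in the Baf180 libraries, with a median log2 fold change of −1.29, against −0.36 over the 39 other members, of which 16 fell. In the Baf250A libraries 5 of the 7 rose, with a median of 0.97, against 5 of the 39 others and a median of −0.03. In the Brd9 libraries 2 of the 7 fell (Nop56 and Dkc1), against 15 of the 39 others, and the medians were −0.31 and −0.56. For the Baf180, Baf250A and Brd9 libraries, 17.0%, 15.5% and 3.57% of all tested genes were called in these directions. Of the tested genes under 45% GC, the shares were 38.3%, 38.9% and 0.684%. The hosts had a GC content of 41.0% to 50.5%, and the offset fit brought their medians to −0.68 in the Baf180, 0.24 in the Baf250A and −0.56 in the Brd9 libraries, against −0.44, 0.09 and −0.52 for the 39 others. In that fit 7, 3 and 6 of the hosts were called in the same directions, against 23, 5 and 32 of the 39 others. The shares of all tested genes there were 18.8%, 17.4% and 13.8%. The counts belong to the host genes, and the snoRNAs themselves were not measured separately here.

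Among the 8 snoRNP proteins, 6 fell in the Brd9 libraries, 5 fell in the Baf180 libraries and 2 rose in the Baf250A libraries, with median log2 fold changes of −0.68, −0.71 and 0.04. In the offset fit 7 were called lower in the Brd9 libraries, 7 lower in the Baf180 libraries and 1 higher in the Baf250A libraries. For this and each later step, the shares of all tested genes were 3.57%, 17.0% and 15.5% in the same order. In the offset fit they were 13.8%, 18.8% and 17.4%. Nop56 and Nop58 are the paired core proteins of box C/D snoRNPs. Nop56 had 200.5 and 208 CPM in the Brd9 libraries, 318 and 318 CPM in the Baf250A libraries and 177 and 166 CPM in the Baf180 libraries, against 338 and 328 CPM in the scramble libraries. All Brd9 and Baf180 libraries lay well below the scramble libraries, and the Baf250A libraries lay just below them. It fell in the Brd9 (log2 fold change −0.71, SE 0.12, adjusted p = 0.00639) and the Baf180 libraries (log2 fold change −0.96, SE 0.12, adjusted p = 0.000681), while in the Baf250A libraries its log2 fold change was −0.07 (SE 0.12). Its partner Nop58 had 64.9 and 53.3 CPM in the Brd9 libraries, 118 and 166 CPM in the Baf250A libraries and 24.9 and 32.03 CPM in the Baf180 libraries, against 77.8 and 64.8 CPM in the scramble libraries. The Baf250A libraries were the highest and the Baf180 libraries the lowest, and 1 Brd9 library overlapped the scramble range. Nop58 rose in the Baf250A (log2 fold change 0.99, SE 0.20, adjusted p = 0.00828) and fell in the Baf180 libraries (log2 fold change −1.32, SE 0.21, adjusted p = 0.00251), and its value in the Brd9 libraries was −0.27 (SE 0.20).

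Dkc1, the pseudouridine synthase of H/ACA snoRNPs, had 37.6 and 34.6 CPM in the Brd9 libraries, 82.9 and 112 CPM in the Baf250A libraries and 18.6 and 26.8 CPM in the Baf180 libraries, against 66.9 and 61.7 CPM in the scramble libraries. No group overlapped the scramble libraries, which stood below the Baf250A and above the Brd9 and Baf180 libraries. Dkc1 fell in the Brd9 libraries (log2 fold change −0.83, SE 0.20, adjusted p = 0.034), rose in the Baf250A libraries (log2 fold change 0.60, SE 0.20, adjusted p = 0.0489) and fell in the Baf180 libraries (log2 fold change −1.50, SE 0.21, adjusted p = 0.00131), where it and Npm1 had the lowest fold changes of the 46. Nolc1, a chaperone that shuttles snoRNPs within the nucleus, had 167 and 176 CPM in the Brd9 libraries, 276 and 268 CPM in the Baf250A libraries and 157 and 148 CPM in the Baf180 libraries, against 272 and 245 CPM in the scramble libraries. Its Baf250A libraries overlapped the scramble libraries, and the other knockdowns lay below them. It fell in the Brd9 (log2 fold change −0.59, SE 0.12, adjusted p = 0.0177) and the Baf180 libraries (log2 fold change −0.76, SE 0.12, adjusted p = 0.00258).

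Nhp2, Nop10 and Gar1 are the small partners of Dkc1, and Fbl is the methyltransferase of box C/D snoRNPs. Nhp2 had 90.02 and 109 CPM in the Brd9 libraries, 159 and 135 CPM in the Baf250A libraries and 133 and 99.7 CPM in the Baf180 libraries, against 172 and 193 CPM in the scramble libraries. Each knockdown library lay below both scramble libraries, and in the Brd9 comparison Nhp2 had the lowest fold change of the 46 (log2 fold change −0.87, SE 0.18, adjusted p = 0.0169). It fell in the Baf180 libraries too (log2 fold change −0.65, SE 0.18, adjusted p = 0.0212). Gar1 and Fbl fell in the Brd9 libraries (−0.66 and −0.76, SE 0.16 and 0.20) and were not called in the other knockdowns, while Nop10 was called in none, with log2 fold changes of −0.17, 0.09 and −0.17 in the Brd9, Baf250A and Baf180 libraries. The Baf250A calls were lost without scramble replicate 2 for Nop58 (adjusted p = 0.0715) and without Baf250A replicate 2 or either scramble replicate for Dkc1 (up to 0.257), and the Baf180 call of Nhp2 without Baf180 replicate 2 or either scramble replicate (up to 0.131). With offsets, the Baf250A values of Nop58 and Dkc1 were 0.24 and 0.13 and were not called.

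Against scramble, edgeR called 1 of the 5 RNA polymerase I genes. Polr1b fell in the Brd9 libraries, or 20%, where 3.57% of all tested genes were called lower. There 4 of the 5 were lower at an unadjusted p below 0.05, and DESeq2 called 3 lower, against 845 of all 12420 genes. For the Baf250A and the Baf180 libraries edgeR called 0 and 0. DESeq2 also called 0 in both, and an unadjusted p below 0.05 was seen for 0 and for 1. Medians were −0.52, −0.06 and 0.01 in the Brd9, Baf250A and Baf180 libraries. Polr1b, a subunit of the catalytic core, had 40.9 and 50.02 CPM in the Brd9 libraries, 73.1 and 60.8 CPM in the Baf250A libraries and 65.8 and 55.1 CPM in the Baf180 libraries, against 66.8 and 72.8 CPM in the scramble libraries. Only the Brd9 libraries stood clear of the others, at log2 fold change −0.62, SE 0.16, adjusted p = 0.0459. Ubtf, the factor that keeps ribosomal RNA genes open, had 114 and 124 CPM in the Brd9 libraries, 167 and 162 CPM in the Baf250A libraries and 179 and 158 CPM in the Baf180 libraries, against 163 and 152 CPM in the scramble libraries. Both Brd9 libraries were lowest, but the fold change of −0.40 (SE 0.13) was not called at an adjusted p of 0.0743.

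Tcof1 encodes treacle, which links transcription of the precursor to its processing, and had 171 and 218 CPM in the Brd9 libraries, 289 and 240.4 CPM in the Baf250A libraries and 229.9 and 215 CPM in the Baf180 libraries, against 291 and 281 CPM in the scramble libraries. The Brd9 and Baf180 libraries lay below the scramble libraries, with log2 fold changes of −0.55 (SE 0.15, adjusted p = 0.0527) and −0.36 (SE 0.15, adjusted p = 0.0946), neither called. Polr1c, a subunit shared with RNA polymerase III, had 43.4 and 54.9 CPM in the Brd9 libraries, 66.9 and 55.7 CPM in the Baf250A libraries and 90.5 and 60.5 CPM in the Baf180 libraries, against 70.4 and 70.2 CPM in the scramble libraries. The Baf180 libraries differed from each other more than the other groups did, and no comparison with scramble was called. Polr1a, the largest subunit, ranged from 146 CPM in a Brd9 library to 226 CPM in a Baf180 library and was not called. With offsets, Polr1b, Tcof1 and Ubtf were called lower in the Brd9 libraries (−0.64, −0.52 and −0.38), Tcof1 lower in the Baf180 libraries (−0.79) and Ubtf higher in the Baf250A libraries (0.28).

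Of the 5 abundant nucleolar proteins, Ncl, Npm1 and Gnl3 rose in the Baf250A and fell in the Baf180 libraries. In all, 4 fell in the Baf180 libraries (median −1.19), 3 rose in the Baf250A libraries (median 0.90) and 2 fell in the Brd9 libraries (median −0.35), and the offset fit called 5, 3 and 4 in the same directions. Ncl encodes nucleolin, an RNA-binding protein of the nucleolus, and had 449.7 and 321 CPM in the Brd9 libraries, 762 and 1111 CPM in the Baf250A libraries and 157 and 171 CPM in the Baf180 libraries, against 441 and 379 CPM in the scramble libraries. The Baf250A libraries stood highest, the Baf180 libraries lowest, and the Brd9 libraries spanned the scramble range. Ncl rose in the Baf250A (log2 fold change 1.19, SE 0.21, adjusted p = 0.00472) and fell in the Baf180 libraries (log2 fold change −1.32, SE 0.22, adjusted p = 0.00282), and its Brd9 value was −0.09 (SE 0.21). Its Baf250A call was the only one of the 10 kept in each of the 8 fits that left out a library.

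Npm1 encodes nucleophosmin, a histone and ribosomal protein chaperone that gives the nucleolus its granular region, and had 498 and 422 CPM in the Brd9 libraries, 870.4 and 1312 CPM in the Baf250A libraries and 188 and 226 CPM in the Baf180 libraries, against 643 and 527 CPM in the scramble libraries. No Baf250A or Baf180 library came near the scramble libraries, and the Brd9 libraries lay just below them. It rose in the Baf250A libraries (log2 fold change 0.90, SE 0.21, adjusted p = 0.0135) and fell in the Baf180 libraries (log2 fold change −1.50, SE 0.21, adjusted p = 0.00151). Gnl3 encodes nucleostemin, a GTPase of proliferating cells, and had 49.6 and 37.6 CPM in the Brd9 libraries, 83.03 and 112 CPM in the Baf250A libraries and 13.7 and 23.2 CPM in the Baf180 libraries, against 41.9 and 42.8 CPM in the scramble libraries. Its Brd9 libraries spanned the scramble values, and the other knockdowns lay apart on either side. In the Baf250A libraries Gnl3 had the highest fold change of the 46 (log2 fold change 1.21, SE 0.25, adjusted p = 0.00854), and it fell in the Baf180 libraries (log2 fold change −1.19, SE 0.26, adjusted p = 0.00891).

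Gnl3 (chr14:31012433-31019152, minus strand) starts head to head with Pbrm1 (chr14:31019138-31121592, plus strand), the gene targeted in the Baf180 group, and in GENCODE M21 their start sites lie 14 bases apart, inside a short overlap. No source used here states whether counting used strand, so reads in the overlap are uncertain. Pbrm1 itself had 66.2 and 50.1 CPM in the Brd9 libraries, 74.6 and 120.1 CPM in the Baf250A libraries and 3.77 and 4.69 CPM in the Baf180 libraries, against 49.2 and 56.00 CPM in the scramble libraries. In the Baf250A libraries it also rose (log2 fold change 0.89, SE 0.23, adjusted p = 0.0211), though not with offsets (0.14) nor without Baf250A replicate 2 or either scramble replicate (adjusted p up to 0.135). Both genes of the pair were low in the Baf180 and high in the Baf250A libraries under TMM scaling. A protein-coding gene starting within 1 kb on the other strand was annotated for 12 of the 46 members.

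Ddx21, an RNA helicase that works on both the polymerase and snoRNAs, had 204 and 184 CPM in the Brd9 libraries, 281 and 324 CPM in the Baf250A libraries and 124 and 138 CPM in the Baf180 libraries, against 302 and 271 CPM in the scramble libraries. The Baf180 libraries were lowest, the Brd9 libraries lay between them and the scramble libraries, and the Baf250A libraries overlapped the scramble range. Ddx21 fell in the Baf180 (log2 fold change −1.13, SE 0.14, adjusted p = 0.000725) and the Brd9 libraries (log2 fold change −0.56, SE 0.14, adjusted p = 0.0347). Mybbp1a, a nucleolar protein that binds Myb, fell in the Brd9 libraries (log2 fold change −0.78, SE 0.19, adjusted p = 0.035), with values of 447 and 628 CPM there, against 936 and 907 CPM in the scramble libraries, and was not called in the Baf250A (−0.25) or the Baf180 libraries (−0.37). The Baf250A calls of Npm1 and Gnl3 were lost without scramble replicate 2 (adjusted p up to 0.102 and 0.0619), that of Npm1 also without Baf250A replicate 2 and that of Gnl3 also without scramble replicate 1, and the Baf180 call of Gnl3 was lost without Baf180 replicate 1 (adjusted p = 0.0507). With offsets, Ncl, Npm1 and Gnl3 were still called higher in the Baf250A libraries at 0.41, 0.33 and 0.77, and all 5 members were called lower in the Baf180 libraries.

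**Figure D2:**
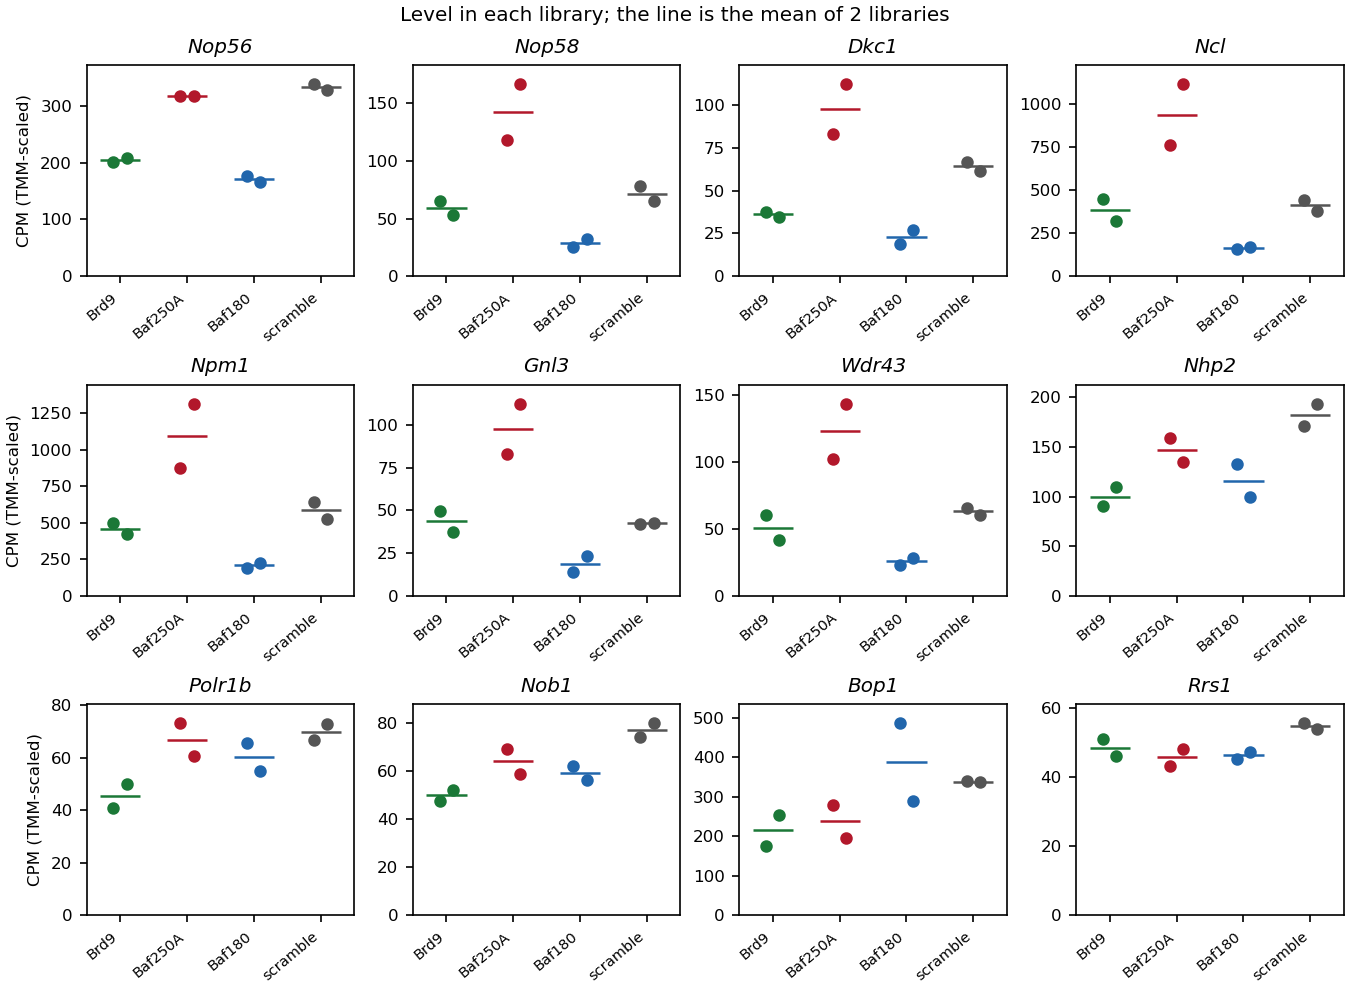
Level in CPM of 12 members in each library, with a point per library and a line at the mean of the 2 libraries of a group, for the Brd9, Baf250A, Baf180 and scramble groups from left to right. Ncl, Npm1, Gnl3, Nop58, Dkc1 and Wdr43 are highest in the Baf250A and lowest in the Baf180 libraries, Nop56 is lower in the Brd9 and Baf180 libraries, and Rrs1 varies little.

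Of the 10 processome genes, 7 fell in the Baf180, 2 fell in the Brd9 and 3 rose in the Baf250A libraries, with medians of −0.73, −0.36 and 0.21. Wdr43, Wdr75, Utp4, Utp15 and Heatr1 belong to the subcomplex that first binds the growing precursor. Wdr43 had 60.6 and 41.4 CPM in the Brd9 libraries, 103 and 144 CPM in the Baf250A libraries and 23.2 and 28.3 CPM in the Baf180 libraries, against 65.8 and 60.3 CPM in the scramble libraries. The Baf250A libraries were highest, the Baf180 libraries lowest, and 1 Brd9 library reached the scramble range. It rose in the Baf250A (log2 fold change 0.97, SE 0.22, adjusted p = 0.0122) and fell in the Baf180 libraries (log2 fold change −1.29, SE 0.22, adjusted p = 0.00363). Wdr75 had 56.8 and 43.2 CPM in the Brd9 libraries, 84.04 and 101 CPM in the Baf250A libraries and 25.4 and 31.9 CPM in the Baf180 libraries, against 53.1 and 48.4 CPM in the scramble libraries. Its groups had the same order, with the Brd9 libraries on either side of the scramble values, and it rose in the Baf250A (log2 fold change 0.86, SE 0.18, adjusted p = 0.00905) and fell in the Baf180 libraries (log2 fold change −0.82, SE 0.18, adjusted p = 0.0105).

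Utp15 had 30.5 and 28.7 CPM in the Brd9 libraries, 50.6 and 57.5 CPM in the Baf250A libraries and 25.8 and 25.04 CPM in the Baf180 libraries, against 39.6 and 35.6 CPM in the scramble libraries. The Brd9 and Baf180 libraries all lay below the scramble libraries. Utp15 rose in the Baf250A (log2 fold change 0.52, SE 0.14, adjusted p = 0.023) and fell in the Baf180 libraries (log2 fold change −0.56, SE 0.14, adjusted p = 0.016), while the Brd9 value of −0.35 (SE 0.14) was not called. Nop14, a component that joins later, had 43.1 and 37.4 CPM in the Brd9 libraries, 59.04 and 69.6 CPM in the Baf250A libraries and 21.04 and 27.2 CPM in the Baf180 libraries, against 54.6 and 50.3 CPM in the scramble libraries. Its Baf180 libraries stood well apart below, its Baf250A libraries lay above scramble, and only the fall in the Baf180 libraries was called (log2 fold change −1.12, SE 0.17, adjusted p = 0.00215).

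Utp4 and Nat10, an acetyltransferase of ribosomal RNA, were the 2 processome genes that fell in the Brd9 libraries (log2 fold changes −0.57 and −0.58, SE 0.12 and 0.15). Utp4, Heatr1 and Utp20, a long scaffold protein, fell in the Baf180 libraries (log2 fold changes −0.85, −0.63 and −0.85). Noc4l, the partner of Nop14, and Rrp9, a protein of the snoRNP inside the processome, were called in no comparison with scramble. Rrp9 had the widest gap of these in the Brd9 libraries, −0.82 (SE 0.22, adjusted p = 0.0505). The Baf250A calls of Wdr43, Wdr75 and Utp15 were each lost without either scramble replicate, and those of Wdr43 and Utp15 also without Baf250A replicate 2 (adjusted p up to 0.0822, 0.0747 and 0.178). The Baf180 calls of Wdr75 (without Baf180 replicate 1 or scramble replicate 1), Utp15 (without Baf180 replicate 1 or either scramble replicate) and Heatr1 (without either scramble replicate) were lost too, at adjusted p up to 0.0734, 0.133 and 0.0551. With offsets, 9 of the 10 were called lower in the Brd9 and 8 in the Baf180 libraries and 2 higher in the Baf250A libraries, and the values of Utp15 were 0.19 in the Baf250A and −0.13 in the Baf180 libraries, neither called.

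Among the 6 factors that finish the small subunit, 3 fell in the Baf180, 1 fell in the Brd9 and 1 rose in the Baf250A libraries, with medians of −0.47, −0.48 and 0.04. With offsets 5 were called lower in the Brd9 libraries and 4 in the Baf180 libraries, while edgeR called 0 in the Baf250A libraries, where 1 had an unadjusted p below 0.05. Ltv1, an export and assembly factor, had 35.5 and 28.2 CPM in the Brd9 libraries, 42.1 and 49.3 CPM in the Baf250A libraries and 16.1 and 19.2 CPM in the Baf180 libraries, against 38.02 and 34.8 CPM in the scramble libraries. The Baf180 libraries were the lowest, and the Brd9 libraries overlapped the scramble range. Only the Baf180 fall was called (log2 fold change −1.05, SE 0.18, adjusted p = 0.0032). Pno1, which holds the cutting site for the nuclease Nob1, had 40.3 and 37.9 CPM in the Brd9 libraries, 61.5 and 83.5 CPM in the Baf250A libraries and 15.3 and 25.5 CPM in the Baf180 libraries, against 42.96 and 34.3 CPM in the scramble libraries. It was highest in the Baf250A and lowest in the Baf180 libraries, and its Brd9 values lay within the scramble range. Pno1 rose in the Baf250A (log2 fold change 0.91, SE 0.24, adjusted p = 0.0233) and fell in the Baf180 libraries (log2 fold change −0.92, SE 0.25, adjusted p = 0.0217).

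Tsr1, a GTPase-like factor of late small subunits, had 82.8 and 78.3 CPM in the Brd9 libraries, 111 and 126 CPM in the Baf250A libraries and 68.1 and 73.8 CPM in the Baf180 libraries, against 108 and 101 CPM in the scramble libraries. The Baf180 and Brd9 libraries lay below and the Baf250A libraries above the scramble libraries, and the fall in the Baf180 libraries was called (log2 fold change −0.56, SE 0.13, adjusted p = 0.0118). Nob1 makes the final cut of small-subunit RNA and had 47.7 and 52.4 CPM in the Brd9 libraries, 69.4 and 58.8 CPM in the Baf250A libraries and 62.1 and 56.3 CPM in the Baf180 libraries, against 74.2 and 79.9 CPM in the scramble libraries. All knockdown libraries lay below both scramble libraries, and the fall in the Brd9 libraries was called (log2 fold change −0.62, SE 0.14, adjusted p = 0.0255). Bysl, a nuclear assembly factor, and Rrp12, an export factor, were not called, with log2 fold changes of −0.58 and −0.70 (SE 0.19 and 0.20) in the Brd9 libraries. The call of Pno1 in the Baf250A libraries was lost without Baf250A replicate 2 or either scramble replicate (adjusted p up to 0.15), and the Baf180 calls of Pno1 and Tsr1 without Baf180 replicate 1 or either scramble replicate (up to 0.131 and 0.0984). With offsets Pno1 stood at 0.35 in the Baf250A and −0.31 in the Baf180 libraries and was not called.

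Of the 12 large-subunit factors, 5 fell in the Brd9, 4 fell in the Baf180 and 1 rose in the Baf250A libraries, with medians of −0.55, −0.33 and −0.07. Mdn1, a giant ATPase that strips assembly factors from the large subunit, had 80.3 and 71.9 CPM in the Brd9 libraries, 89.9 and 120.2 CPM in the Baf250A libraries and 47.4 and 48.3 CPM in the Baf180 libraries, against 71.4 and 75.8 CPM in the scramble libraries. Its Baf250A libraries lay above and its Baf180 libraries below the scramble libraries, and its Brd9 value was the highest of the 46 in that comparison at 0.05 (SE 0.16). Mdn1 rose in the Baf250A (log2 fold change 0.51, SE 0.16, adjusted p = 0.037) and fell in the Baf180 libraries (log2 fold change −0.62, SE 0.16, adjusted p = 0.017). Ftsj3, a methyltransferase, had 91.3 and 90.7 CPM in the Brd9 libraries, 128 and 139 CPM in the Baf250A libraries and 86.8 and 71.7 CPM in the Baf180 libraries, against 135 and 136 CPM in the scramble libraries. The Brd9 and Baf180 libraries all lay well below the Baf250A and scramble libraries, and Ftsj3 fell in the Brd9 (log2 fold change −0.57, SE 0.13, adjusted p = 0.0298) and the Baf180 libraries (log2 fold change −0.77, SE 0.13, adjusted p = 0.0037).

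Rrp1b, a nucleolar protein of the large-subunit pathway, had 53.1 and 57.1 CPM in the Brd9 libraries, 88.1 and 86.6 CPM in the Baf250A libraries and 52.7 and 56.6 CPM in the Baf180 libraries, against 69.5 and 69.4 CPM in the scramble libraries. Its Baf250A libraries lay above and its other knockdown libraries below the scramble libraries, but no comparison with scramble was called, at −0.33, 0.33 and −0.34 (SE 0.12 each). Wdr12 forms the PeBoW complex with Pes1 and Bop1 and had 32.9 and 35.7 CPM in the Brd9 libraries, 54.1 and 61.3 CPM in the Baf250A libraries and 36.8 and 33.1 CPM in the Baf180 libraries, against 44.1 and 47.1 CPM in the scramble libraries. The order was the same, and again no comparison with scramble was called. Pes1 fell in the Brd9 libraries (log2 fold change −0.69, SE 0.16, adjusted p = 0.0276). Bop1 had 175 and 254 CPM in the Brd9 libraries, 280.0 and 196 CPM in the Baf250A libraries and 485 and 288 CPM in the Baf180 libraries, against 338 and 338 CPM in the scramble libraries. It was at the low end of the 46 in the Baf250A comparison (−0.51, SE 0.27) and at the high end in the Baf180 comparison (0.19, SE 0.27), with neither called and the Baf180 libraries far apart.

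Nop2, a cytosine methyltransferase, Nop16 and Nip7 also fell in the Brd9 libraries (log2 fold changes −0.73, −0.53 and −0.76, SE 0.19, 0.14 and 0.17). Noc3l and Nip7 fell in the Baf180 libraries (log2 fold changes −0.65 and −0.66). Noc2l, the partner of Noc3l, was not called, and Rrs1 was not called either, with all its values between 43.3 and 55.4 CPM. The Mdn1 call in the Baf250A libraries was lost without Baf250A replicate 2 or either scramble replicate (adjusted p up to 0.23), and the Baf180 calls of Mdn1, Nip7 and Noc3l were lost without either scramble replicate, among others (up to 0.106, 0.105 and 0.26). With offsets, 10 of the 12 were called lower in the Brd9 and 5 in the Baf180 libraries and 1 higher in the Baf250A libraries, and Mdn1, Nip7 and Noc3l were no longer called in the Baf180 libraries (−0.24, −0.44 and −0.11), nor Mdn1 in the Baf250A libraries (0.16).

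**Figure D3:**
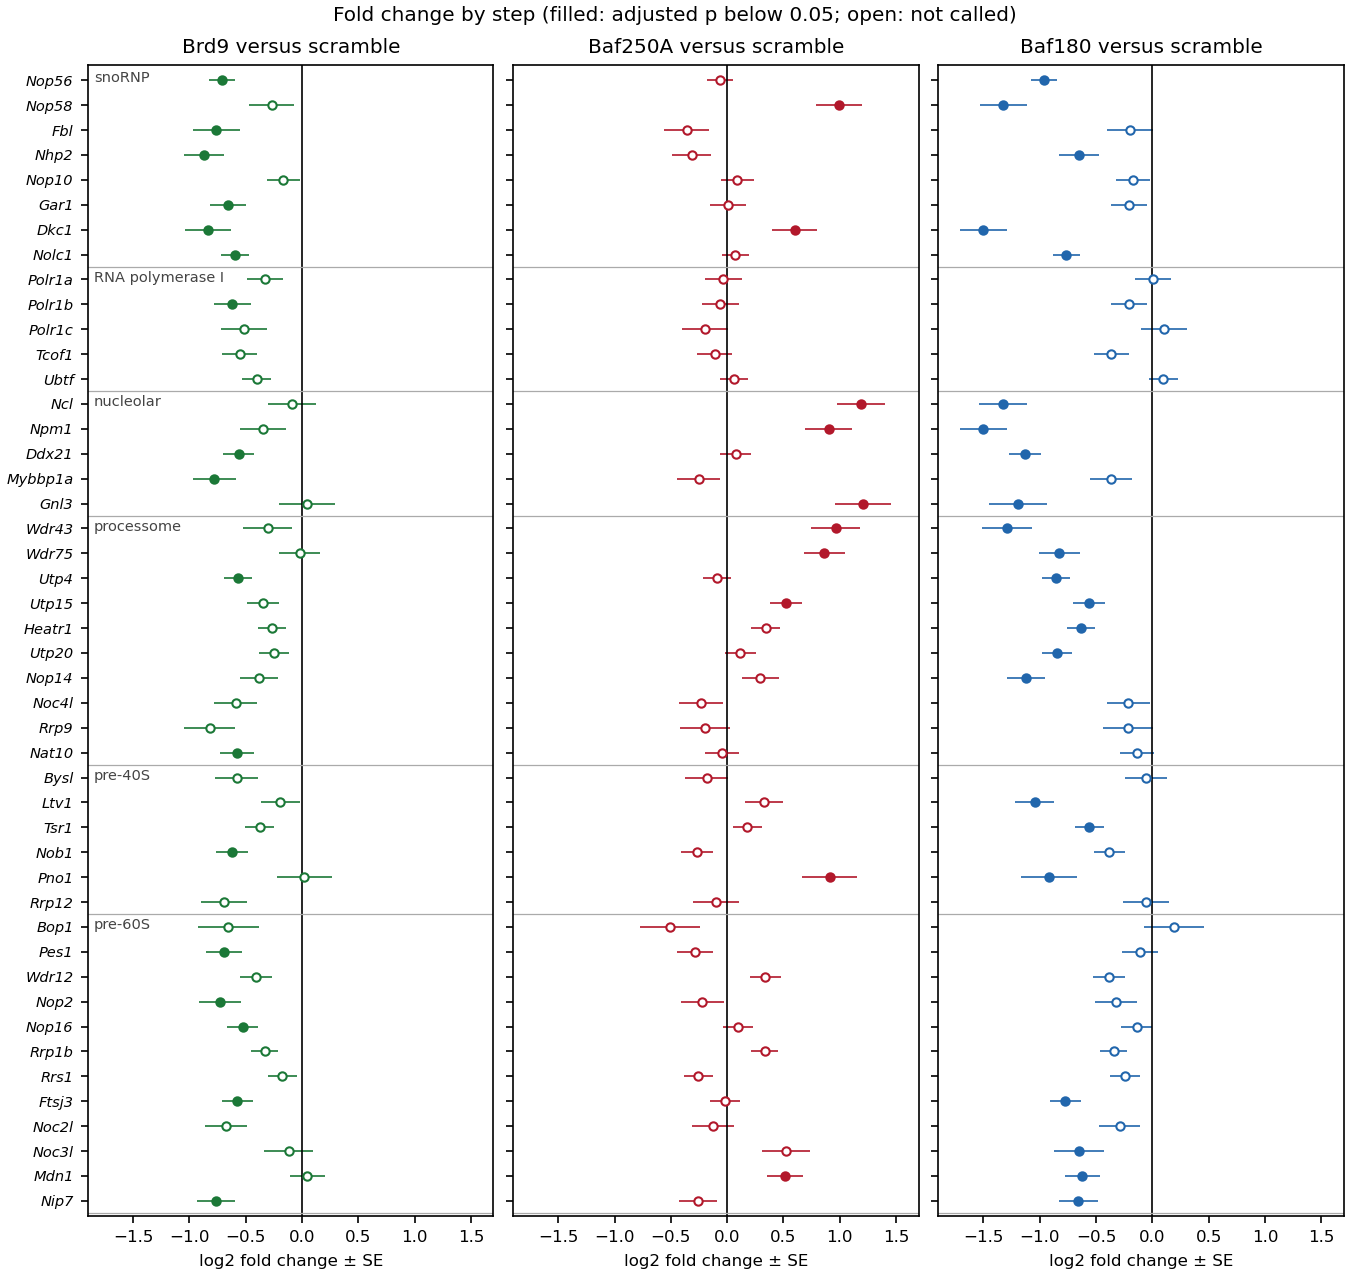
Log2 fold change of each member against scramble with its SE, for the Brd9, Baf250A and Baf180 knockdowns from left to right, with members in rows grouped by step and 2 libraries per group. Filled points were called and open points were not; all filled points are below 0 in the Brd9 and Baf180 panels and above 0 in the Baf250A panel.

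The fold changes of the members followed transcript GC content. The 46 transcripts had a GC content of 41.0% to 59.8% with a median of 50.3%, against a median of 50.5% over the tested genes with a known transcript. Across the 46 members, Spearman's rho between GC content and log2 fold change was −0.59 in the Brd9, −0.81 in the Baf250A and 0.73 in the Baf180 comparison. Across 12290 tested genes it was −0.30, −0.53 and 0.59, and genes within a library are not independent replicates. With offsets the values of the members were 0.01, −0.08 and −0.03.

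The 10 members under 45% GC held 8 of the 10 rises in the Baf250A libraries and 9 of the 23 falls in the Baf180 libraries. Of all tested genes in that GC range, 38.9% were called higher in the Baf250A and 38.3% lower in the Baf180 libraries. With offsets these 10 members held 5 of the 8 and 7 of the 30. Their medians were −0.19 in the Brd9, 0.90 in the Baf250A and −1.24 in the Baf180 libraries, against 0.30, 0.68 and −0.66 over the 2632 tested genes in that GC range. The 8 members at or above 55% GC had medians of −0.67, −0.16 and −0.21, against −0.15, −0.33 and 0.42 over 3214 genes. In both ranges the members' medians in the Brd9 and Baf180 libraries were below those of all genes of like GC content, and in the Baf250A libraries they were above them.

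**Figure D4:**
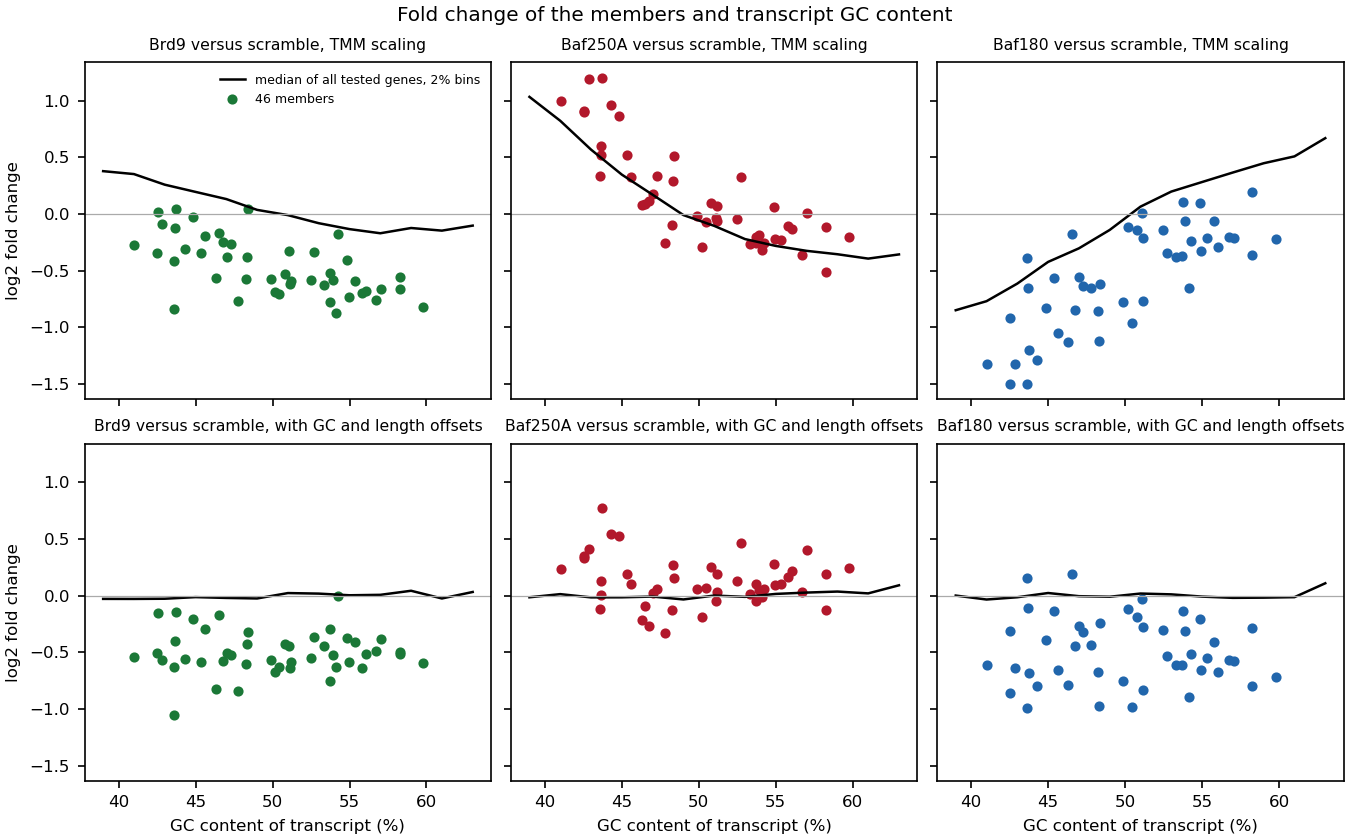
Log2 fold change against scramble and transcript GC content in percent, with a point for each of the 46 members and a black line for the median of all tested genes in bins of GC content, for the Brd9, Baf250A and Baf180 knockdowns from left to right. The top row uses TMM scaling and the bottom row the offset fit; Brd9 and Baf180 points lie mostly below the line in both rows, and the slope across members is nearly gone in the bottom row.

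The knockdowns were also compared with each other, where the scramble libraries entered only the scaling and the shared estimate of the spread. Between Baf250A and Brd9 libraries, 25 members were higher and 0 lower in the Baf250A libraries, with a median log2 fold change of 0.56, and 10.0% of all tested genes were called higher. For the count of 0, an unadjusted p below 0.05 and DESeq2 gave 0 too. Both Baf250A libraries lay above both Brd9 libraries for 42 members, where the share of all genes was 29.4%. The offset fit called 40 members higher, where the share was 21.0% (42.7% in either direction). The largest of the gaps called were Dkc1 (log2 fold change 1.43, SE 0.20, adjusted p = 0.00136), Ncl (log2 fold change 1.28, SE 0.21, adjusted p = 0.00315), Wdr43 (log2 fold change 1.27, SE 0.22, adjusted p = 0.00364) and Nop58 (log2 fold change 1.27, SE 0.21, adjusted p = 0.0027). Fewer members, and fewer of all tested genes, were called without Baf250A replicate 2.

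Between Baf250A and Baf180 libraries, 23 members were higher and 1 was lower in the Baf250A libraries, with a median of 0.54. The shares of all tested genes were 30.8% higher and 31.7% lower, so that 52.2% of the members and 62.5% of all genes differed in either direction. Ncl, Npm1, Gnl3, Nop58, Wdr43 and Dkc1 differed most, by 2.52, 2.40, 2.40, 2.32, 2.26 and 2.10 on the log2 scale, and Bop1 was the one that was lower (log2 fold change −0.70, SE 0.27, adjusted p = 0.0464). Bop1 was not called without Baf180 replicate 1, Baf250A replicate 2 or either scramble replicate (adjusted p up to 0.406). In the offset fit 34 members were higher and 0 lower, where 27.0% of all genes were called higher and 28.0% lower. For that count of 0 an unadjusted p below 0.05 also gave 0. Against scramble, 10 members (21.7%) were called both higher in the Baf250A and lower in the Baf180 libraries, as were 4.75% of all tested genes, and in the offset fit 7 (15.2%), against 2.91%. Between Baf250A and Baf180 libraries Bop1 turned in the offset fit, at 0.16, as did Wdr12, at −0.28 against 0.72 without offsets, and neither was called with them.

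Between Brd9 and Baf180 libraries the members split. Of the 46, 14 were higher and 11 lower in the Brd9 libraries, with a median of 0.01 (−0.02 with RLE scaling), and the shares of all tested genes were 26.3% higher and 23.3% lower. Upper-quartile scaling gave 17 higher and 4 lower, against 3655 and 2149 of all 12420 tested genes. Higher in the Brd9 libraries were Ncl (log2 fold change 1.24, SE 0.22, adjusted p = 0.00474) and Npm1 (log2 fold change 1.15, SE 0.21, adjusted p = 0.00514), which were the calls kept in each fit that left out a library. The 11 that were lower included Bop1 (−0.85), Rrp12 (−0.64), Polr1c (−0.62) and Pes1 (−0.58). Without Brd9 replicate 1 or Baf180 replicate 1 fewer members were called, and fewer of all tested genes were called too. The offset fit called 9 higher and 3 lower, where the shares of all genes were 15.7% and 16.5%. In that fit 20 of the 25 calls were lost, and 8 of the 25 had the opposite sign (Mdn1, Fbl, Heatr1, Dkc1, Rrp9, Ddx21, Gar1 and Utp20). All 8 members at or above 55% GC had negative values, and 5 were called lower, but with offsets 6 of the 8 had positive values.

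Levels of different members were compared per length, in TPM (transcript abundance corrected for gene length), computed from the deposited counts and gene lengths. In the scramble libraries Npm1 had the highest mean level, 767 ± 99.4 TPM (SD, n = 2), followed by Fbl at 444 ± 14.8 TPM and Mybbp1a at 398 ± 4.29 TPM. Nhp2 at 331 ± 31.5 TPM and Nop56 at 318 ± 3.17 TPM came next and did not differ beyond their spread. Mdn1 had the lowest, 7.46 ± 0.401 TPM. In the Baf250A libraries Npm1 reached a mean of 1646 ± 521 TPM. In the Baf180 libraries, at 265 ± 68.8 TPM, it stood below Fbl at 368 ± 49.8 TPM. TPM is not corrected for GC content, which was 42.5% for Npm1 and 56.7% for Fbl. The part of GC content in this order was not tested.

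Another 118 genes of ribosome biogenesis outside the 46, among them the RNA exosome and further subunits of RNA polymerase I, passed the filter. Of these, 14 (11.9%) fell in the Brd9 libraries, where the share of all tested genes was 3.57%, and 51 (43.2%) fell in the Baf180 libraries, where it was 17.0%. In the Baf250A libraries 19 (16.1%) rose and 1 (0.847%) fell, against 15.5% and 14.0% of all genes. Medians were −0.34 in the Brd9, 0.09 in the Baf250A and −0.44 in the Baf180 libraries. With offsets 66 (55.9%) were called lower in the Brd9 libraries, against 13.8% of all genes, and 56 (47.5%) lower in the Baf180 libraries, against 18.8%. It called 24 (20.3%) higher and 4 (3.39%) lower in the Baf250A libraries, against 17.4% and 18.1%. The 4 with the lowest p for any difference were Dis3, a nuclease of the exosome, and the large-subunit factors Brix1, Rpf1 and Nol8. Brix1 had 58.4 and 49.2 CPM in the Brd9 libraries, 96.01 and 122 CPM in the Baf250A libraries and 25.1 and 29.7 CPM in the Baf180 libraries, against 49.7 and 44.3 CPM in the scramble libraries, and rose in the Baf250A (log2 fold change 1.22, SE 0.17, adjusted p = 0.00143) and fell in the Baf180 libraries (log2 fold change −0.78, SE 0.17, adjusted p = 0.0103). Dis3 had 64.3 and 51.5 CPM in the Brd9 libraries, 112 and 123 CPM in the Baf250A libraries and 29.3 and 31.7 CPM in the Baf180 libraries, against 70.4 and 66.98 CPM in the scramble libraries, and likewise rose (log2 fold change 0.77, SE 0.15, adjusted p = 0.00569) and fell (log2 fold change −1.17, SE 0.15, adjusted p = 0.000875). Rpf1 and Nol8 were also called higher in the Baf250A (1.04 and 1.39) and lower in the Baf180 libraries (−1.13 and −1.70). The rise of Dis3 was lost without scramble replicate 2 (adjusted p = 0.0568), those of Rpf1 and Nol8 without scramble replicate 1 (0.059 and 0.0642), and the fall of Brix1 without Baf180 replicate 1 or scramble replicate 1 (up to 0.0752). All 4 had a GC content below 45%, and with offsets Brix1 was at −0.11 in the Baf180 libraries and Dis3 at 0.28 in the Baf250A libraries, neither called.

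The 79 cytosolic ribosomal protein genes, whose products these factors assemble, were tested too, and 29 (36.7%) differed among the 4 groups, against 68.9% of all tested genes. The offset fit called 52 (65.8%), against 69.0%. Of the 79, 13 (16.5%) fell in the Brd9 libraries, where the share of all genes was 3.57%, and 8 (10.1%) fell in the Baf180 libraries, where it was 17.0%. For the Baf250A libraries edgeR called 0 higher and 0 lower, against 15.5% and 14.0% of all genes. An unadjusted p below 0.05 was seen for 1 and 11, and DESeq2 called 0 and 2. Medians were −0.46 in the Brd9, −0.25 in the Baf250A and −0.10 in the Baf180 libraries. In the offset fit 35 (44.3%) were called lower in the Brd9 libraries, against 13.8% of all genes. It called 30 (38.0%) lower and 4 (5.06%) higher in the Baf180 libraries, against 18.8% and 19.5% of all genes, and 4 (5.06%) higher and 3 (3.80%) lower in the Baf250A libraries, against 17.4% and 18.1%. Myc, the best-known activator of ribosome biogenesis, had 86.7 and 83.1 CPM in the Brd9 libraries, 128 and 125 CPM in the Baf250A libraries and 77.4 and 94.1 CPM in the Baf180 libraries, against 107 and 109 CPM in the scramble libraries. Its Baf250A libraries lay above the scramble libraries and the others below, but no comparison with scramble was called (−0.35, 0.23 and −0.33 in the Brd9, Baf250A and Baf180 libraries, SE 0.13 each). Between knockdowns, Myc was higher in the Baf250A than in the Brd9 libraries (log2 fold change 0.58, SE 0.13, adjusted p = 0.0136) and than in the Baf180 libraries (log2 fold change 0.56, SE 0.13, adjusted p = 0.00525), and its Brd9 difference was lost without Baf250A replicate 2 or Brd9 replicate 2 (adjusted p up to 0.0674). With offsets Myc was called higher in the Baf250A (0.53) and lower in the Baf180 libraries (−0.61) against scramble. Mycn had 0 counts in all 8 libraries.

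Promoters were searched because the members fell together in several comparisons. Windows of 250 bases before the start, from RefSeq on GRCm38.p6, were found for 40 of the 46 members (not for Tcof1, Bop1, Rrp12, Rrs1, Fbl and Npm1), and both strands were searched. For each gene 1 window was taken, the one nearest to the gene's start, for the members and for the 18212 genes of the table with a window alike. The E-box CACGTG, which Myc can bind, was found for 1 member, or 2.5%, against 6.86% of those genes. GGCGGG, a GC-box letter run, was found for 24 members, or 60%, against 41.9% of genes. TATAAA was found for 2 members, or 5%, against 12.1%, and the CGCG element, a palindrome of 10 letters, for 0 of 40, against 0.582%. The 18212 genes were not limited to those that passed the filter on low counts, while all members passed it. The part of this in the shares was not tested. A match of letters is a description and not a binding site, and no match says only that the letters are not in this window. The member with the E-box letters was Nop2 (chr6:125131633-125131882, plus strand), where they lie 60 bases before the start and are in capitals, shown as the single match.
Nop2: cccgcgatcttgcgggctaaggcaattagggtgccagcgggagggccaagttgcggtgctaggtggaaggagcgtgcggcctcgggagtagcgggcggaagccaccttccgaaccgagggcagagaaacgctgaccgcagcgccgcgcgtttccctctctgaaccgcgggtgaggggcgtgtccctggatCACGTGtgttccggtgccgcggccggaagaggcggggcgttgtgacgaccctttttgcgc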

How the data were processed

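The deposited gene table held estimated counts per gene made by the authors for 8 libraries, of which 6.89% to 8.13% of values had decimals, and a gene length column, per the file headers. Tools named in the submitters' processing notes are RSEM, Bowtie2, HISAT2, StringTie, Cufflinks and DESeq2, with the build mm10; no source used here gives their versions or roles, or the strandedness. Estimated counts were rounded, filtered with filterByExpr, scaled by TMM (factors 0.846 to 1.12) and fitted with edgeR 4.0.16 (glmQLFit, glmQLFTest; R 4.3.3) over the 4 groups, with Benjamini-Hochberg adjustment over 12420 genes at 0.05; SEs are the log2 fold change divided by the root of F. Offsets were loess curves (span 0.3) of log2 level on GC content and on length. DESeq2 1.42.0, other scalings, no filter, a replicate block and leaving out each library were alternatives. The fit was tested on simulated data. Of 24573 gene identifiers, 24479 matched RefSeq by gene ID and 9 by accession, with 85 unmatched. Values in every library were given for the 4 members per step with the lowest p for any difference and the members at each end of the fold changes. They were also given for Pbrm1, Myc, Mycn, Brix1 and Dis3. Brd9 and Arid1a were given in their own group and the scramble group, and Rpf1 and Nol8 by fold change. Fbl, Mybbp1a and others were given by range or fold change. Members and gene lists were chosen with earlier results of these data known.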

Additional observations from a re-analysis of the deposited data

Results flagged for a closer look

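Many of these genes differed between knockdowns in direct tests. With edgeR, 25 of the 46 members differed between Baf250A and Brd9 libraries, 24 between Baf250A and Baf180 libraries, and 25 between Brd9 and Baf180 libraries. These are 54.3%, 52.2% and 54.3% of the members, where 25.0%, 62.5% and 49.6% of all tested genes differed, so the share between Baf250A and Baf180 libraries was below that of all genes. With offsets 40, 34 and 12 members were called (87.0%, 73.9% and 26.1%), against 42.7%, 55.0% and 32.2% of all genes. Of the members, 10 (21.7%) were called higher in the Baf250A and lower in the Baf180 libraries, each against scramble, as were 4.75% of all tested genes, and with offsets 7 (15.2%) were, against 2.91%. The 2 comparisons share the scramble libraries.

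The log2 fold changes between Baf250A and Baf180 libraries were 2.32 for Nop58, 2.10 for Dkc1, 2.52 for Ncl, 2.40 for Npm1, 2.40 for Gnl3, 2.26 for Wdr43, 1.69 for Wdr75, 1.09 for Utp15, 1.83 for Pno1 and 1.13 for Mdn1. These 10 were chosen because they were called in opposite directions against scramble and also called in this comparison. Their direct gaps and p-values follow from that choice and add no support. Adjusted p ran between 6.76e-05 and 0.000423 with edgeR. Both Baf250A libraries lay above both Baf180 libraries in 10 of 10, and for 4984 of all 12420 tested genes. With GC and length offsets 9 of the 10 were called, where 27.0% of all genes were called higher. The fold changes of the 10 ran between 0.32 and 1.45 there. Their transcripts had a GC content of 41.0% to 48.4%, and the part of GC content in these differences was not tested further.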

How the results depend on the processing

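Of 124 calls of members over the 6 comparisons, 10 had the opposite sign with GC and length offsets, with or without the replicate block, and none of the 10 was called there. They were 8 of 25 between Brd9 and Baf180 libraries and 2 of 24 between Baf250A and Baf180 libraries, among them Bop1, at −0.70 between Baf250A and Baf180 libraries and 0.16 with offsets or with both. No other alternative run turned a call, while the median of the members in Brd9 against Baf180 libraries was 0.01 and became −0.02 with RLE scaling. The number of members called in the Brd9 libraries against scramble, 17, became 4 with a replicate block, 38 with offsets and 37 with both, and ran between 0 and 20 when each library was left out. The count for Baf250A against scramble (10) ran between 1 and 12, that for Baf180 against scramble (23) between 14 and 23, and that for any difference (40) between 25 and 42 without a library. For Baf250A against Brd9 libraries (25), offsets gave 40, the block with offsets 38, and leaving out a library 15 to 30. For Brd9 against Baf180 libraries (25), offsets gave 12, the block with offsets 8, and leaving out a library 2 to 28. Counts over all tested genes moved across these runs too. For Brd9 against scramble, 1244 of 12420 genes became 721 with the block, 3507 with offsets and 2861 with both. For Baf250A against Brd9 libraries 3108 became 5300 with offsets and 4883 with both. For Brd9 against Baf180 libraries 6158 became 3999 and 3500. The cause was not tested. The deviations of replicate 1 from the group mean correlated between groups at −0.435 to 0.408, and at −0.205 to 0.136 after offsets. With both signs present, these values cannot tell whether the replicate numbers pair the samples. No label states such a pairing, so the block joins libraries known to share only a number. Of 34 calls of named members, 26 were kept with offsets, 28 with the block, 24 with both, 33 with upper-quartile scaling, 15 without scramble replicate 1, 14 without scramble replicate 2, and 34 with DESeq2. Of 96 medians of the members under alternatives, 10 moved by more than the SD between libraries. The lowest level of a member in any library was 10.8 CPM (Noc3l), so all members were well counted, and the number of libraries limits the precision.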
